A study of Arabidopsis thaliana with 12 samples.

Results

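The comparison set 3 libraries of the Arabidopsis thaliana mutant atrx-2 against 3 libraries of wild type Col-0, all grown under normal light. The libraries were chosen by their labels, and they are 6 of the 12 in the series. Both genotypes were whole seedlings aged 10 days from long days at 130 µmol of light. The other 6 libraries hold the same genotypes at 30 µmol, here called low light, and serve as a second measurement of the genes named under normal light. The labels name the atrx-2 allele without describing the lesion, and this allele alone stands for the genotype. They number the replicates without tying them to separate cultures, so the p-values speak only of how far these samples scatter, part or all of which may be technical. RNA was read in bulk from whole seedlings, and fewer cells of a type cannot be told apart from less RNA per cell.

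ATRX is a SWI/SNF-type chromatin remodeller that takes part in placing the histone variant H3.3 in nucleosomes. LHP1 binds histone H3 trimethylated at lysine 27, the mark that Polycomb repressive complex 2 (PRC2) writes on silenced genes, and the series title joins ATRX with LHP1 at PRC2 target loci. In Arabidopsis, PRC2 and LHP1 help keep developmental genes such as the flowering genes FLC and FT silent at the wrong stage.

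The normal-light libraries held between 17473391 and 23899191 estimated counts. Of 33602 loci, 20783 passed the filter on low counts and were tested. The 18S ribosomal RNA locus took 3.7% to 8.64% of counts, chloroplast genes 2.29% to 3.55% and mitochondrial genes 0.184% to 0.290%. Spearman correlations of expression across genes were 0.986 to 0.993 within genotypes and 0.986 to 0.992 between them. Levels below are CPM, TMM-scaled estimated counts per 1e+06 counts of the library. The first principal component of the 6 libraries, with 28.8% of the variance, set atrx-2 replicate 1 apart at 36.7 (the other 5 lay between -21.7 and 9.35). On the second, with 25.5%, atrx-2 replicates 2 and 3 stood at 29.9 and 20.2 and the other 4 libraries below 0. Leaf and root markers were present in all 6 libraries. The 9 leaf genes summed to 28511.7 to 31413.9 CPM in wild type and 25614.7 to 27891.8 CPM in atrx-2, and the 8 root genes to 2187 to 2265 CPM and 1789 to 2195 CPM. The 7 seed markers had 26 wild-type and 21 mutant counts in all.

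The mutated gene was read first, as a check of the labels. ATRX (AT1G08600; TAIR10.1 chromosome 1, 2723677 to 2733613, plus strand) stood at 38.4, 40.8 and 35.1 CPM in wild-type replicates 1, 2 and 3 and at 1.02, 0.932 and 0.799 CPM in atrx-2. All 3 mutant libraries lay far below all 3 wild-type libraries. ATRX fell by 5.37 ± 0.15 on the log2 scale (SE; adjusted p = 3.10e-11 by edgeR's quasi-likelihood test with Benjamini-Hochberg adjustment over all tested genes). The signal left in the mutant was 54 counts over 3 libraries, against 2391 in wild type. Under low light ATRX read 38.1, 37.2 and 45.5 CPM in wild type and 0.399, 0.405 and 0.712 CPM in atrx-2.

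The annotated loci beside ATRX were examined next, 10 on either side. Of these 20 loci, 19 were tested and none was called. An unadjusted p under 0.05 was found in 4 of the 19, a larger share than the 8.62% of all tested genes. The 4 included the loci next to ATRX on either side, AT1G08592 and AT1G08610. AT1G08610, which overlaps ATRX by 18 bases on the opposite strand, differed by -0.37 ± 0.13 (log2, SE; adjusted p = 0.497 by edgeR). The long noncoding RNA AT1G08592, 1766 bases before ATRX, had 11 wild-type counts, all in replicate 2, and 65 mutant counts, and the groups overlapped. Under low light the wild type had no AT1G08592 count (0) and the mutant 62, at least 17.3-fold higher when the wild-type group is set to a floor of 3 counts in all. AT1G08592 lies along the opposite strand of AT1G08590 for 3295 bases. Strand use in counting is not given in the sources used here, so reads of this pair cannot be told apart.

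**Figure D1:**
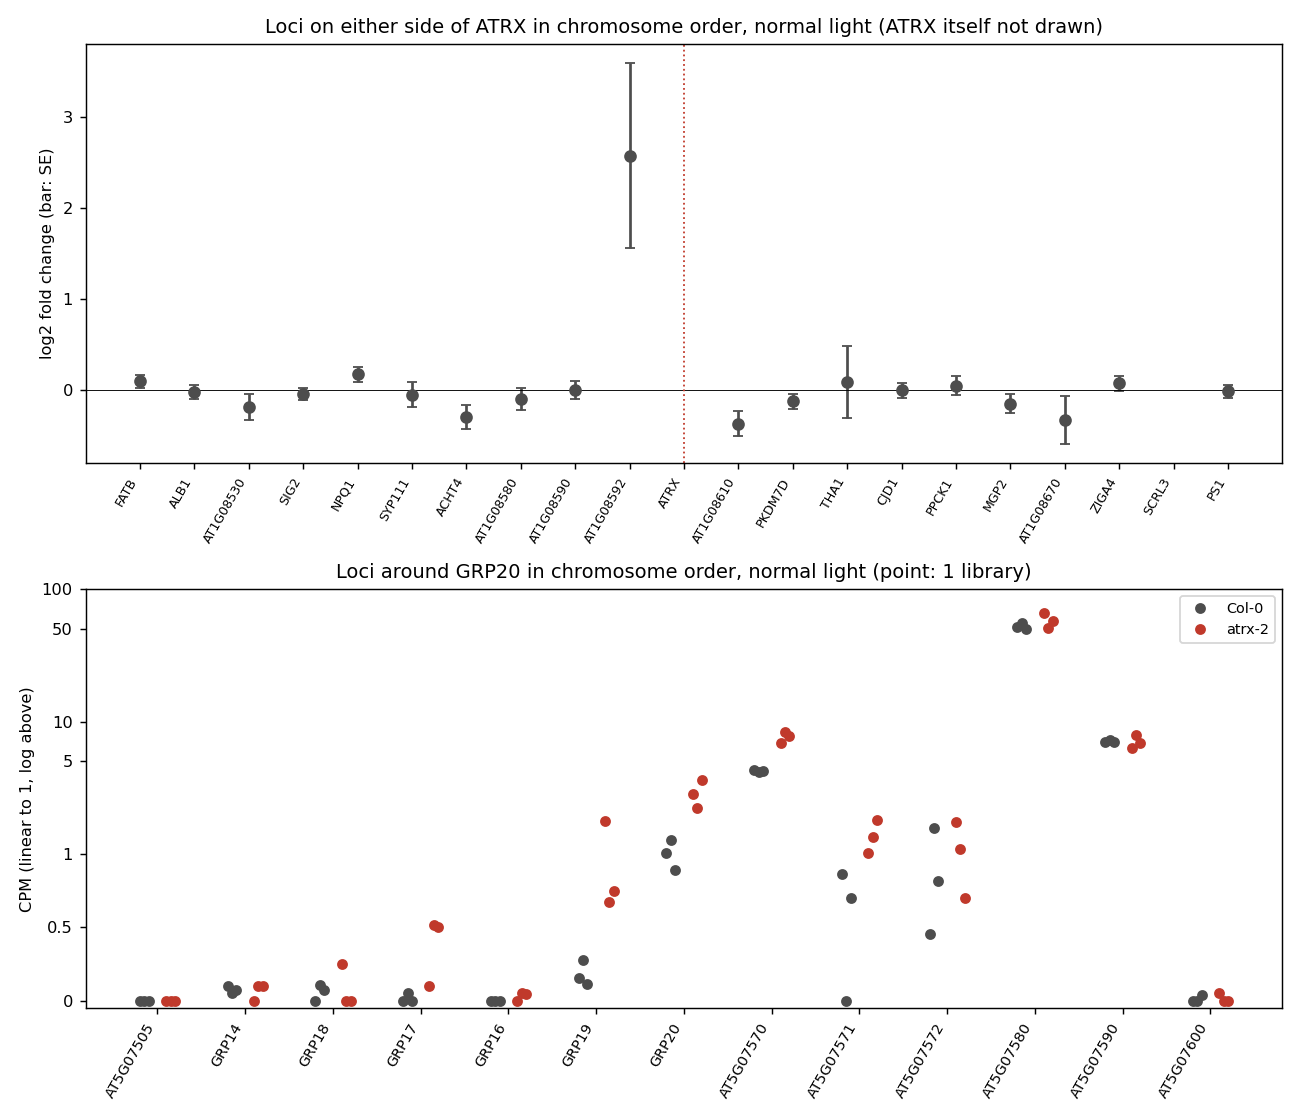
Top, fitted log2 fold change (atrx-2 minus Col-0) with SE of the tested loci on either side of ATRX in chromosome order, where every flanking locus but AT1G08592 lies between -0.37 and 0.17. Bottom, CPM of each normal-light library (points, linear up to 1 and log above) for the loci around GRP20 in chromosome order. GRP17, GRP19, GRP20, AT5G07570 and AT5G07571 are higher in all 3 atrx-2 libraries, GRP17 at low counts.

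Across the transcriptome few genes passed the test. With an adjusted p under 0.05 by edgeR, 14 of 20783 genes were called, or 0.0674%. Of these, 10 were higher in atrx-2 (0.0481%) and 4 lower (0.0192%), ATRX among the latter. They were 12 protein-coding genes and 2 annotated pseudogenes. At an unadjusted p under 0.05 there were 770 higher genes (3.7%) and 1021 lower (4.91%), together 1791 or 8.62%. Relaxing the adjusted threshold to 0.1 gave 38 genes (0.183%). The median absolute log2 difference was 0.11, its 90th percentile 0.35 and its 99th 0.99. Of 202 genes with a fitted difference of at least 2-fold, 9 were called. Values of all 3 mutant libraries lay above all 3 wild-type values in 1152 genes (5.54%) and below them in 1375 (6.62%), in all 2527 or 12.2%, and the 14 called genes were among these.

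**Figure D2:**
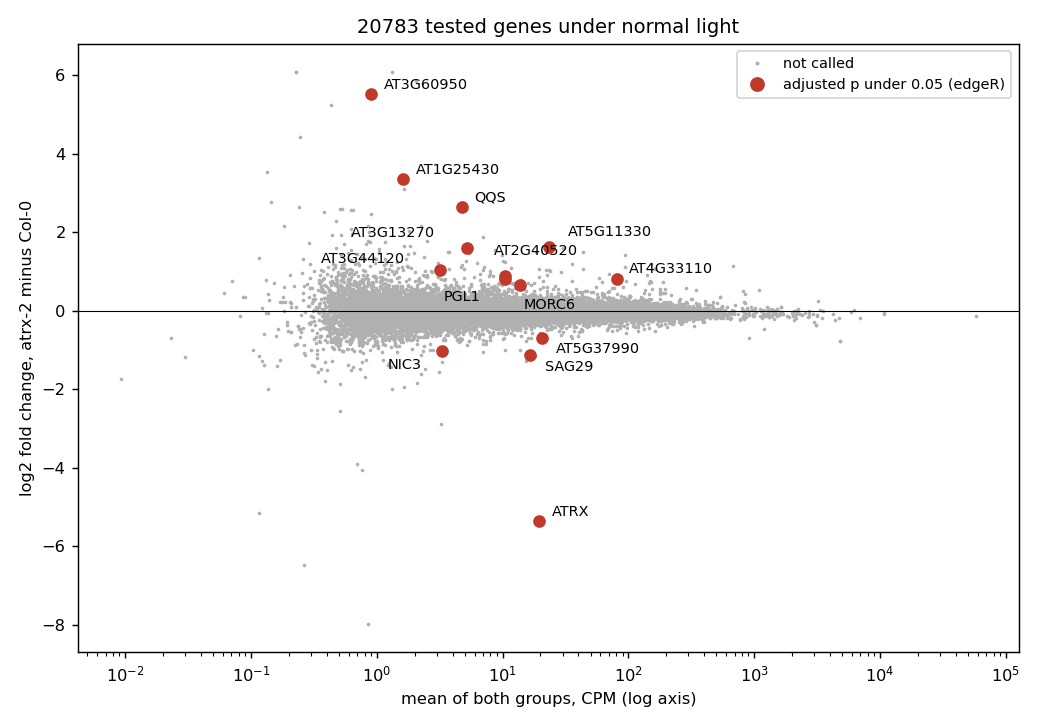
Fitted log2 fold change (atrx-2 minus Col-0, vertical axis) against the mean CPM of both groups (horizontal log axis) for each of 20783 tested genes under normal light. The 14 called genes are red and named, and most other genes lie close to 0; the fitted value of AT3G60950, with 2 counts in wild type, depends on the fit's prior count.

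**Figure D3:**
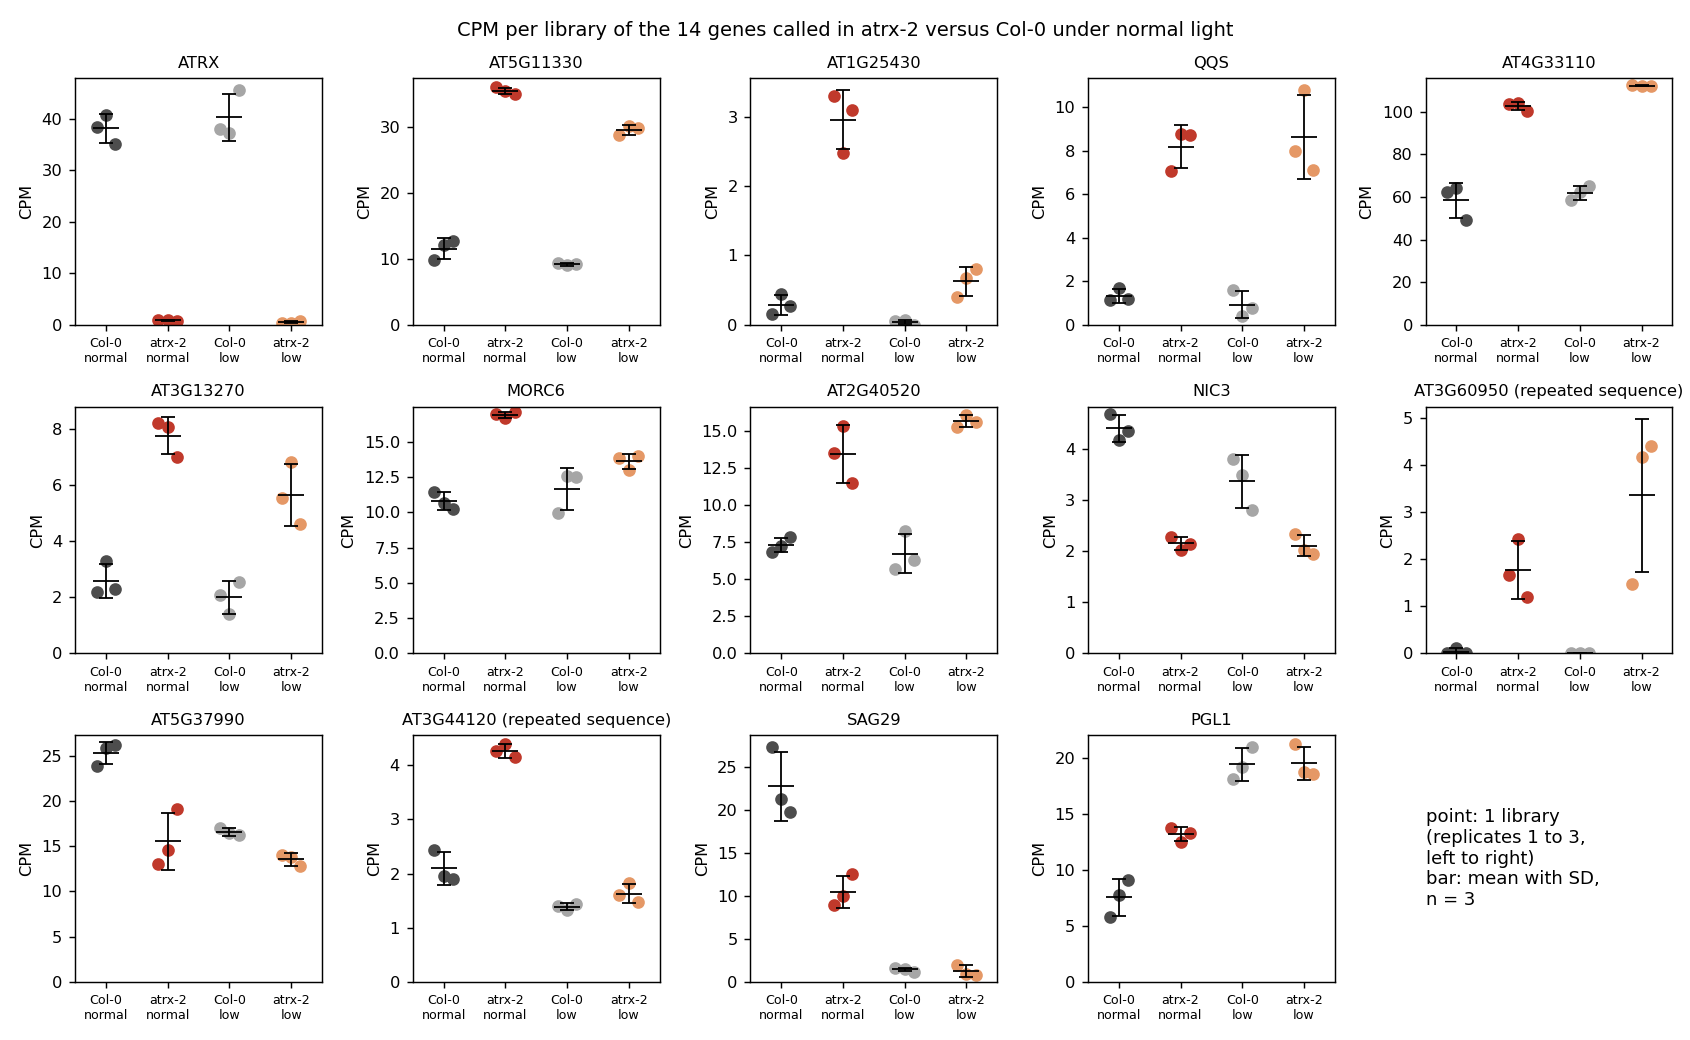
CPM of each library (points) with the mean and SD (bars, n = 3) for the 14 called genes, in Col-0 and atrx-2 at normal and low light. Under normal light no atrx-2 point lies within the Col-0 points of any panel; in the SAG29 and PGL1 panels the low-light groups overlap.

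Among the called coding genes without repeated sequence, QQS and AT5G11330 had the largest rises, and SAG29 and NIC3 the largest falls after ATRX; some uncalled genes had larger fitted differences. The bases before the annotated start of these 4 genes are printed because these genes carry the largest called changes in each direction. They come from the RefSeq genome TAIR10.1 and run 5′ to 3′ on the gene's strand up to the annotated start, cut where a neighbouring locus begins. Capitals mark matches, on either strand, to the telobox AAACCCTA, the G-box CACGTG, the TATA box TATAAA or the repeat GAGAGAGA. The windows are chr3:12348797-12349046 (plus strand, QQS), chr5:3618914-3619151 (minus strand, AT5G11330), chr5:4183355-4183604 (minus strand, SAG29) and chr5:7820761-7821010 (minus strand, NIC3).
QQS: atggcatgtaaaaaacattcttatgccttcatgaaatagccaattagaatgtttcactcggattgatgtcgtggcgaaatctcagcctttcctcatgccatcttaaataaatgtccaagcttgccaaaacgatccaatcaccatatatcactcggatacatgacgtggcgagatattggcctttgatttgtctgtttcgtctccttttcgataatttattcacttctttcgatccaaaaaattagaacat
AT5G11330: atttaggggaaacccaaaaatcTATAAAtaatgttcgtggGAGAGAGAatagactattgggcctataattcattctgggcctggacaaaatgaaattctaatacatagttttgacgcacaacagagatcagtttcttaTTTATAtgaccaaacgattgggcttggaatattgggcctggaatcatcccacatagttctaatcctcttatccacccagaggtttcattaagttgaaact
SAG29: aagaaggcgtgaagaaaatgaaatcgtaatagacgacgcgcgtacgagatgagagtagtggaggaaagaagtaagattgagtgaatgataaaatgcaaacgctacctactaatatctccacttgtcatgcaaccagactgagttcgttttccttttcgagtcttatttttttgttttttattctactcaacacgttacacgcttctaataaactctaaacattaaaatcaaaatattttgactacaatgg
NIC3: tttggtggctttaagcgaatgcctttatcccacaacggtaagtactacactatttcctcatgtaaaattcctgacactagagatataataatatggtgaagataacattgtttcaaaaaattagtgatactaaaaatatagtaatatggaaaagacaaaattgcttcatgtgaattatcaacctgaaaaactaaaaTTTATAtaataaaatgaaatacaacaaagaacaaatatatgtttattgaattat
The AT5G11330 window held 2 TATA boxes and 1 GAGA repeat within its 238 bases, and the NIC3 window 1 TATA box, 54 bases before the start. None of the 4 motifs was found in the windows of QQS and SAG29. Among 19945 windows of 250 bases before annotated starts, 50.9% held the TATA box, 6.36% the G-box, 4.06% the GAGA repeat and 3.79% the telobox.

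QQS (AT3G30720; chromosome 3, 12349047 to 12349933, plus strand) is an orphan gene, without known relatives in other species, whose product binds the transcription factor subunit NF-YC4 and shifts carbon between starch and protein. Its level was 1.12, 1.67 and 1.16 CPM in wild type and 7.06, 8.75 and 8.74 CPM in atrx-2. Every mutant library was far above every wild-type library. QQS rose by 2.65 ± 0.28 (log2, SE; adjusted p = 0.000677 by edgeR). The 16 annotated loci around it, 8 on either side, hold 14 pseudogenes, of which 13 had at most 2 counts over the 6 libraries. The single tested neighbour, the pseudogene AT3G30737, held 84 counts in wild type and 88 in atrx-2 (log2 0.19 ± 0.27 SE), and GDU6, 2538 bases from QQS, held 3 and 5 counts. The partner gene NF-YC4 was at 28.5 ± 1.64 CPM in wild type and 31.3 ± 1.76 CPM in atrx-2 (SD, n = 3; adjusted p = 0.632 by edgeR), and KIN10, a catalytic subunit of the energy-sensing kinase SnRK1, at 36.4 ± 1.41 CPM in wild type and 38.2 ± 1.39 CPM in atrx-2 (adjusted p = 0.802 by edgeR).

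Genes of annotated enzymes also rose. AT5G11330 (chromosome 5, 3617138 to 3618913, minus strand), annotated as an FAD/NAD(P)-binding oxidoreductase, stood at 9.78, 12.1 and 12.8 CPM in wild type and 36.1, 35.5 and 35.1 CPM in atrx-2. The groups were far apart, and AT5G11330 rose by 1.62 ± 0.089 (log2, SE; adjusted p = 2.13e-07 by edgeR). Its neighbour AT5G11340, 238 bases away, was at 25.1 ± 1.1 CPM in wild type and 22.5 ± 0.67 CPM in atrx-2 (SD, n = 3; adjusted p = 0.582 by edgeR). AT4G33110 (chromosome 4, 15972323 to 15974797, minus strand), annotated as an S-adenosylmethionine-dependent methyltransferase, went from 62.3, 64.1 and 49 CPM to 104, 104 and 100.5 CPM. It rose by 0.81 ± 0.090 (log2, SE; adjusted p = 0.00102 by edgeR), and per length it had the highest level of the 14 genes in TPM, 39.5 ± 3.34 TPM in wild type and 70.9 ± 0.369 TPM in atrx-2 (SD, n = 3). Its neighbour AT4G33120 matches 9.48% of the 50-base windows of AT4G33110 and differed by -0.32 ± 0.19 (log2, SE), and AT4G33100, which overlaps it by 167 bases on the opposite strand, by 0.012 ± 0.13. AT2G40520 (chromosome 2, 16922337 to 16925961, plus strand), annotated as a nucleotidyltransferase, was at 6.88, 7.24 and 7.84 CPM in wild type and 13.6, 15.4 and 11.5 CPM in atrx-2, a rise of 0.88 ± 0.13 (log2, SE; adjusted p = 0.0252 by edgeR).

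MORC6 and PGL1 rose by less. MORC6 (AT1G19100, also DMS11; chromosome 1, 6594883 to 6601355, plus strand) encodes a GHKL ATPase that takes part in silencing repeats together with RNA-directed DNA methylation. Its libraries read 11.5, 10.7 and 10.2 CPM in wild type and 17, 16.7 and 17.1 CPM in atrx-2, a narrow and separate set in each genotype. It rose by 0.65 ± 0.096 (log2, SE; adjusted p = 0.0232 by edgeR). PGL1 (AT1G13700; chromosome 1, 4694372 to 4696023, minus strand), a 6-phosphogluconolactonase of the oxidative pentose phosphate pathway, stood at 5.76, 7.74 and 9.12 CPM in wild type and 13.8, 12.5 and 13.3 CPM in atrx-2. The wild-type libraries spread widely but stayed below the mutant, and PGL1 rose by 0.80 ± 0.13 (log2, SE; adjusted p = 0.0436 by edgeR). It overlaps the opposite-strand gene ATE1 by 39 bases, and ATE1 was at 15.3 ± 1.29 CPM in wild type and 12.9 ± 1.26 CPM in atrx-2 (SD, n = 3; adjusted p = 0.547 by edgeR).

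Both called pseudogenes were low in wild type. AT1G25430 (chromosome 1, 8927732 to 8933058, minus strand) read 0.153, 0.445 and 0.272 CPM in wild type and 3.3, 2.49 and 3.1 CPM in atrx-2, a rise of 3.35 ± 0.35 (log2, SE; adjusted p = 0.000677 by edgeR). AT3G13270 (chromosome 3, 4285851 to 4288332, minus strand) read 2.19, 3.28 and 2.29 CPM and then 8.23, 8.08 and 6.99 CPM, a rise of 1.60 ± 0.20 (log2, SE; adjusted p = 0.00467 by edgeR). No 50-base window of either locus matched another place in the genome. The genes on either side of AT1G25430 overlapped between genotypes: CLE43, which encodes a signalling peptide, was at 2.04 ± 0.403 CPM in wild type and 1.97 ± 0.0596 CPM in atrx-2, and BBX15, a B-box zinc finger gene, at 134 ± 12.9 CPM in wild type and 127 ± 12.8 CPM in atrx-2 (SD, n = 3).

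The remaining higher genes are uncertain because of repeated sequence. AT3G60950 (chromosome 3, 22524475 to 22530306, plus strand), annotated with a C2 and an endonuclease/exonuclease/phosphatase domain, had 2 wild-type counts and 104 mutant counts; after scaling the mutant was 55.8 times higher, with a 95% counting interval of 15.1 to 467 (adjusted p = 0.0335 by edgeR). All 1388 of its 50-base windows occur elsewhere in the genome, 877 of them in AT3G61030, which lies 55348 bases away and held 1 count in wild type and 28 in the mutant. The pseudogene AT3G60930, 7603 bases from AT3G60950, held 189 counts in wild type and 309 in the mutant (log2 0.81 ± 0.17 SE, adjusted p = 0.119 by edgeR), with 26.1% of its windows repeated. The F-box gene AT3G44120 was at 2.44, 1.95 and 1.9 CPM in wild type and 4.27, 4.4 and 4.15 CPM in atrx-2 (log2 1.03 ± 0.17 SE, adjusted p = 0.0358 by edgeR), and 54.8% of its windows recur elsewhere.

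Besides ATRX, 3 genes fell. SAG29 (AT5G13170, also SWEET15; chromosome 5, 4181042 to 4183354, minus strand) encodes a plasma membrane sucrose transporter that is induced in ageing leaves. It stood at 27.3, 21.2 and 19.7 CPM in wild type and 8.89, 9.94 and 12.5 CPM in atrx-2, and fell by 1.12 ± 0.18 on the log2 scale (SE; adjusted p = 0.0393 by edgeR). NIC3 (AT5G23220; chromosome 5, 7819608 to 7820760, minus strand), a nicotinamidase that feeds nicotinamide back into NAD synthesis, went from 4.69, 4.18 and 4.35 CPM to 2.29, 2.02 and 2.15 CPM and fell by 1.03 ± 0.16 (log2, SE; adjusted p = 0.0335 by edgeR). Its values were tight in both groups. AT5G37990 (chromosome 5, 15133867 to 15135169, minus strand), a member of the SABATH family that methylates small carboxylic acids, read 23.9, 25.9 and 26.2 CPM in wild type and 13, 14.6 and 19.1 CPM in atrx-2. All mutant libraries were below wild type, replicate 3 the least so, and AT5G37990 fell by 0.70 ± 0.11 (log2, SE; adjusted p = 0.0335 by edgeR). NIC2, the locus next to NIC3 among tested genes, was at 1.68 ± 0.202 CPM in wild type and 1.4 ± 0.281 CPM in atrx-2 (SD, n = 3), and AT5G38020, a SABATH gene 30472 bases from AT5G37990, at 12.9 ± 1.34 CPM in wild type and 8.72 ± 0.775 CPM in atrx-2 (log2 -0.56 ± 0.12 SE, adjusted p = 0.161 by edgeR).

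The calls differed in how far they rested on single libraries. When each of the 6 normal-light libraries was left out in turn, 5 genes stayed called each time, namely ATRX, AT5G11330, AT1G25430, QQS and AT4G33110. AT3G13270 lost its call without wild-type replicate 1 or wild-type replicate 3. The other 8 called genes lost theirs in at least 5 of the 6 omissions, and PGL1 had the highest adjusted p over all 17 alternatives, 0.272. No called gene changed direction in any alternative that could be fitted for it, 17 for 8 of the genes and 16 for the other 6, which lay under the filter of 5 CPM.

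Low light gave a second measurement of both genotypes from other libraries. The 14 genes all differed in the same direction there, where 11645 of 20783 tested genes did. In 12 of the 14, or 11 of the 13 without ATRX, the low-light groups did not overlap. Over all tested genes this held for 6.22% in the higher and 6.66% in the lower direction. The low-light libraries also entered the filter and the estimate of each gene's spread behind the 14 calls. Genes with close replicates there were favoured for a call, so these low-light counts are not an independent check. Under low light 15 genes were called (0.0722%), 7 of them among the 14. QQS read 1.62, 0.395 and 0.763 CPM in wild type and 7.98, 10.8 and 7.12 CPM in atrx-2 under low light, a rise of 3.14 (log2; adjusted p = 0.000424 by edgeR). AT5G11330 and AT4G33110 differed by 1.68 and 0.86 (log2), close to their values of 1.62 and 0.81 under normal light. AT3G60950 held 0 counts over the wild-type and 181 over the mutant low-light libraries, at least 50.6-fold higher, and AT1G25430 held 2 and 34, a ratio of 14.3 with an interval of 3.66 to 123. The overlapping genes were SAG29, at 1.57, 1.52 and 1.19 CPM in wild type and 1.99, 0.945 and 0.76 CPM in atrx-2, and PGL1, at 18.1, 19.2 and 21 CPM and 21.3, 18.8 and 18.6 CPM.

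The difference of the genotype effect between light levels had an unadjusted p under 0.05 for 6 of the 14 (4.4% of all tested genes). The genes were selected on the normal-light effect, which enters that difference. After adjustment none of the 14 passed, with adjusted p-values of 0.978 or more by edgeR. PGL1 had the smallest unadjusted p of the 14, 0.000673, with log2 differences of 0.80 under normal light and 0.010 under low light.

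**Figure D4:**
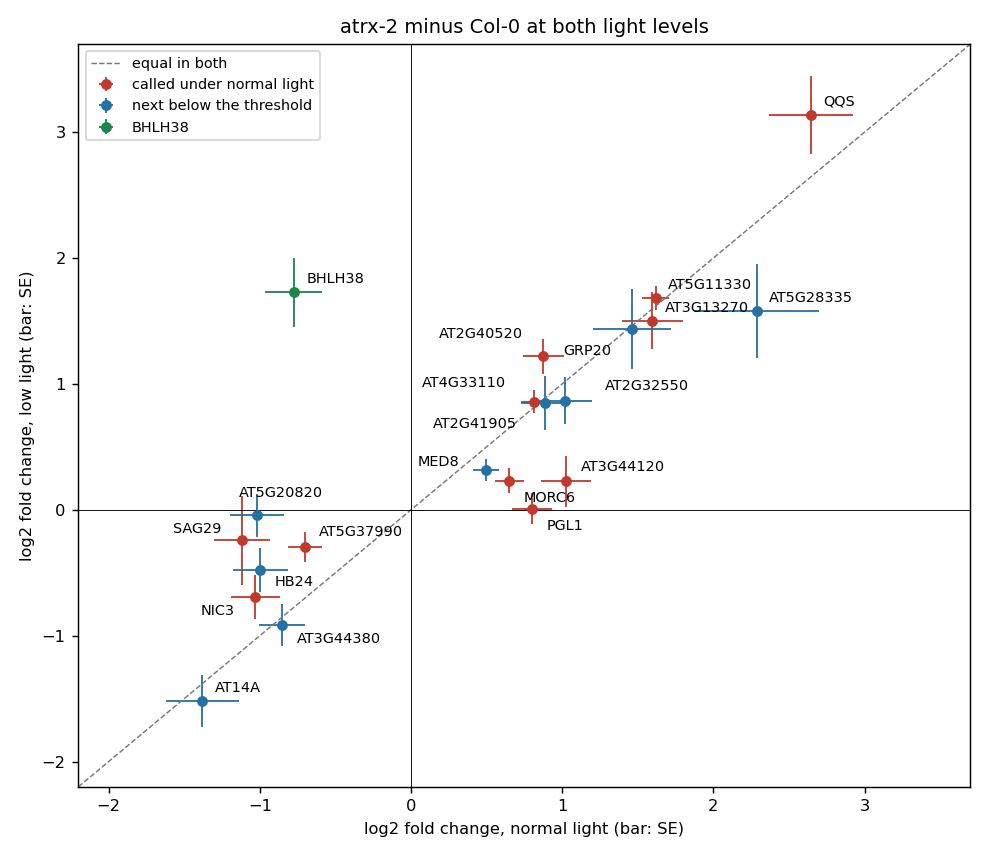
Fitted log2 fold change (atrx-2 minus Col-0) under low light against that under normal light, with SE bars, for called genes (red), the next genes below the threshold (blue) and BHLH38 (green). ATRX, AT3G60950 and AT1G25430 are not drawn, the last 2 because a group held 2 counts or fewer; PGL1 and SAG29 lie near 0 on the vertical axis, and BHLH38 lies on opposite sides of 0.

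The 10 genes just below the threshold had adjusted p-values of 0.0524 to 0.0561 by edgeR. They were 5 higher and 5 lower, and all had the same sign under low light. In 9 the low-light groups did not overlap in that direction (6.22% of all tested genes were higher and 6.66% lower without overlap there). These low-light counts are not an independent check either, for the reason given for the called genes. MED8, a subunit of the Mediator complex that links transcription factors to RNA polymerase II, was at 12.9, 12.4 and 13.1 CPM in wild type and 18.6, 17.55 and 18.1 CPM in atrx-2. AT5G20820, annotated as SAUR-like, was at 3.62, 2.78 and 2.99 CPM and 1.63, 1.61 and 1.4 CPM, and the homeobox gene HB24 at 3.16, 3.9 and 4.19 CPM and 1.73, 1.86 and 2.05 CPM. In each of these genes the groups were clearly separate. The loci AT3G28290 and AT3G28300, both named AT14A, are identical over all 1574 of their windows and hold equal values, so they are 1 measurement of uncertain origin (log2 -1.38 ± 0.24 SE). AT5G28335 has 63.6% of its windows repeated and is uncertain too.

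DESeq2 on the same design called 58 genes (0.228% of those given an adjusted p). They included the 14 edgeR genes, and of the other 44 there were 27 higher and 17 lower. In all 44 the groups did not overlap, against 12.2% of all tested genes. The 44 were selected on these same libraries, so their separation adds no further support. ABCB21, an auxin transporter, was at 12.3, 19.3 and 15 CPM in wild type and 29.7, 24 and 24.5 CPM in atrx-2 (DESeq2 adjusted p = 0.000532, edgeR adjusted p = 0.0692). RPP4, a receptor gene for downy mildew resistance, was at 9.52, 14 and 9.86 CPM and 17.3, 16.2 and 17 CPM (DESeq2 adjusted p = 0.00632, edgeR adjusted p = 0.131), though 31.9% of its windows recur at other loci. The pseudogene AT1G43590 was at 3.06, 1.56 and 1.71 CPM in wild type and 0.559, 0.518 and 0.50 CPM in atrx-2, with 11.6% of its windows repeated. Under low light AT1G43590 differed by -3.05 (log2; adjusted p = 0.00376 by edgeR).

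Genes of related pathways were read as 30 lists, each described by its counts beside those of all 20783 tested genes, of which 10142 lay above 0 with a median log2 difference of -0.0046. No list median was tested, and the lists were chosen with earlier results of these data known. Among ATRX and the histone chaperones, ATRX was the only called gene of 17. ASF1A, a chaperone of H3 and H4, was at 16.1 ± 0.973 CPM in wild type and 14.1 ± 0.518 CPM in atrx-2, and SPT6L, a transcription elongation factor, at 115 ± 9.68 CPM in wild type and 131 ± 10.6 CPM in atrx-2 (SD, n = 3; adjusted p = 0.578 for both by edgeR). Of 16 tested genes for histones H3 and H2A none was called, 14 lay below 0 and the median was -0.18 (-0.0019 under low light). HTR9, an H3.1 gene, stood at 45.5 ± 3.8 CPM in wild type and 38 ± 1.3 CPM in atrx-2, and HTR8, an H3.3 gene, at 131 ± 16.6 CPM in wild type and 113 ± 3.91 CPM in atrx-2 (SD, n = 3). Relative to each gene's mean over the 6 libraries, the histone list stood at 0.21, -0.074 and 0.12 in the Col-0 libraries and at -0.048, -0.040 and -0.15 in those of atrx-2 (median log2 of CPM plus 0.5), so wild-type replicate 2 lay among the mutant libraries. Of 19 replication and cell cycle genes, 15 were below 0 (median -0.081), with overlapping libraries, at 0.22, -0.18 and 0.083 for Col-0 and -0.18, 0.14 and -0.12 for atrx-2.

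Polycomb and trithorax genes had 17 of 21 members above 0, a median of 0.095, overlapping libraries (-0.075, -0.0096 and -0.012 for Col-0 and -0.026, 0.065 and 0.090 for atrx-2 relative to each gene's mean) and no call. RING1B, a ring finger protein of Polycomb repressive complex 1, was at 6.36 ± 0.397 CPM in wild type and 7.95 ± 0.313 CPM in atrx-2, and the PRC2 subunit EMF2 at 21.3 ± 1.02 CPM in wild type and 24.5 ± 0.719 CPM in atrx-2 (SD, n = 3; adjusted p = 0.497 and 0.521 by edgeR). LHP1 was at 17.62, 18.5 and 18.7 CPM in wild type and 19.2, 19.4 and 17.9 CPM in atrx-2, groups that overlapped. Of 38 tested genes of DNA methylation and silencing MORC6 rose, 28 lay above 0 and the median was 0.089, with atrx-2 replicate 1 below every wild-type library over the list. RDR2, the RNA polymerase that makes double-stranded precursors of small RNAs, was at 6.86 ± 0.349 CPM in wild type and 8.37 ± 0.785 CPM in atrx-2, and MORC2, a relative of MORC6, at 0.84 ± 0.283 CPM in wild type and 1.49 ± 0.104 CPM in atrx-2 (SD, n = 3; adjusted p = 0.504 and 0.521 by edgeR).

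Known PRC2 targets held no called gene among 17 tested of 30, and 12 lay above 0 (median 0.15). Relative to each gene's mean the libraries overlapped, at 0.022, -0.11 and 0.032 for Col-0 and 0.018, -0.064 and 0.14 for atrx-2. The median of these targets under low light was -0.10. FLC (AT5G10140; chromosome 5, 3173382 to 3179448, minus strand), the repressor of flowering, was at 1.53, 1.39 and 2.1 CPM in wild type and 2.89, 2.49 and 4.0 CPM in atrx-2. All mutant values exceeded all wild-type values, and the same held under low light, but the difference of 0.88 ± 0.26 did not pass (log2, SE; adjusted p = 0.402 by edgeR). Its relatives MAF2 and MAF4 differed by 0.16 and 0.38 (log2) with overlapping groups, and so did AGL15, an embryo MADS-box gene, by -0.42. FT, the mobile flowering signal, was at 1.17, 2.67 and 1.63 CPM and 3.15, 1.24 and 1.1 CPM, a difference of 0.018 ± 0.44 (log2, SE) whose sign turned in 6 alternatives. Of 18 flowering-time genes none was called and the median was 0.0048.

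Among metabolic lists, 5 held a called gene described above (0.0674% of all tested genes were called). The lists were chosen with earlier results of these data known, so a call within a list says nothing about its pathway. NAD genes lay below 0 in 10 of 11 cases, but apart from NIC3 their groups overlapped. SWEET sugar transporters had a median of -0.12 over 8 genes. SWEET11, a phloem-loading sucrose transporter, read 118, 103 and 115 CPM in wild type and 95.4, 79.2 and 74.1 CPM in atrx-2 (log2 -0.44 ± 0.10 SE, adjusted p = 0.191 by edgeR), with every mutant library below wild type. Pentose phosphate genes other than PGL1 stayed between -0.18 and 0.17 (log2). Starch genes had a median of 0.00097 over 13 genes without a call, and SABATH genes one of -0.11 over 11.

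Genes that make aliphatic glucosinolates, the sulfur-rich defence compounds derived from methionine, lay below 0 in 23 of 24 cases without a call. Their median was -0.21, and in 6 genes, all lower, the groups did not overlap (6.62% of all tested genes were lower without overlap). CYP79F1, which starts the core pathway, was at 63.8, 70.5 and 59.3 CPM in wild type and 55.3, 47.6 and 51.7 CPM in atrx-2 (log2 -0.32 ± 0.14 SE, adjusted p = 0.549 by edgeR), and IMD1, of side-chain elongation, at 128 ± 2.25 CPM in wild type and 108 ± 14.4 CPM in atrx-2 (SD, n = 3). Relative to each gene's mean, the list stood at 0.046, 0.16 and 0.098 in the Col-0 libraries and at -0.052, -0.22 and -0.014 in those of atrx-2 (median log2 of CPM plus 0.5). The 11 indole glucosinolate genes had a median of -0.00077.

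Stress and hormone lists held no called gene. Salicylic acid and defence genes lay above 0 in 15 of 17 cases (median 0.15). Relative to each gene's mean the list stood at -0.13, 0.026 and -0.097 for Col-0 and 0.12, -0.086 and 0.15 for atrx-2, so atrx-2 replicate 2 lay among the wild-type libraries. SARD1, an activator of salicylic acid synthesis, read 0.102, 0.334 and 0.543 CPM in wild type and 2.54, 0.621 and 1.05 CPM in atrx-2, highest in atrx-2 replicate 1, and ICS1, the synthesis enzyme, was at 10.5 ± 0.633 CPM in wild type and 12.7 ± 1.36 CPM in atrx-2 (SD, n = 3; adjusted p = 0.497 by edgeR). Ageing and dark-induced genes lay above 0 in 10 of 11 cases (median 0.25), but the libraries overlapped, at -0.33, 0.076 and -0.11 for Col-0 and 0.17, -0.058 and 0.069 for atrx-2 relative to each gene's mean, and the median under low light was -0.099. Among them was NYC1, a chlorophyll b reductase, at 49.9, 45.5 and 47.8 CPM and 59.2, 56.5 and 57.1 CPM (adjusted p = 0.341 by edgeR). Heat shock genes lay below 0 in 17 of 23 cases (median -0.24) with overlapping libraries, and the small heat shock gene HSP17.6II was at 42.4 ± 13.1 CPM in wild type and 27.2 ± 2.43 CPM in atrx-2 (SD, n = 3). Jasmonate genes had a median of 0.0037 over 18, and their libraries scattered from -0.35 in wild-type replicate 1 to 0.48 in wild-type replicate 2, with atrx-2 replicate 1 at 0.37. The cold regulator CBF2 was at 0.56, 0.223 and 0.155 CPM in wild type and 3.91, 0.259 and 0 CPM in atrx-2, so its fitted difference of 2.17 (log2) rests on atrx-2 replicate 1 and was -1.21 without it.

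Iron genes went both ways, with 16 of 22 below 0 and a median of -0.15. Without overlap, 6 were lower and 2 higher (6.62% and 5.54% of all tested genes). Relative to each gene's mean, the list stood at 0.068, 0.087 and 0.048 for Col-0 and 0.036, -0.060 and -0.12 for atrx-2. The median under low light had the other sign, 0.16. FER1, an iron-storing ferritin of plastids, read 82.5, 60.2 and 69.1 CPM in wild type and 153, 93.8 and 111 CPM in atrx-2 (log2 0.76 ± 0.17 SE, adjusted p = 0.191 by edgeR), with no overlap. BHLH38, which pairs with FIT to switch on iron uptake, read 8.0, 9.74 and 10.1 CPM and then 5.28, 6.11 and 4.85 CPM (log2 -0.78 ± 0.19 SE, adjusted p = 0.241 by edgeR). Its relative BHLH39 stood at 7.56 ± 1.43 CPM in wild type and 5.17 ± 0.348 CPM in atrx-2 (SD, n = 3), and FIT differed by 0.026 (log2). Under low light BHLH38 was the higher in atrx-2, at 1.23, 0.461 and 1.53 CPM in wild type and 3.59, 3.85 and 3.13 CPM in the mutant. BHLH38 was the only gene of 20783 (0.00481%) called for a genotype effect that differed between light levels.

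The other lists held no call. Light-harvesting antenna genes lay below 0 in 17 of 20 cases with a median of -0.070, and LHCB1.1 was at 5015 ± 269 CPM in wild type and 4408 ± 221 CPM in atrx-2 (SD, n = 3; adjusted p = 0.559 by edgeR), a value that is uncertain because its close copies can share reads. Clock genes had a median of -0.024 over 20, with RVE8, an activator of evening genes, at 53.4 ± 1.64 CPM in wild type and 45.9 ± 4.19 CPM in atrx-2 (SD, n = 3). DNA damage genes had a median of 0.059 over 16, flavonoid genes -0.042 over 10 and cold and abscisic acid genes 0.038 over 15. The list of ribosomal RNA synthesis and the nucleolus had a median of 0.050 over 10 loci, 4 of them ribosomal RNA loci themselves. All 9 leaf markers and all 8 root markers lay below 0, with medians of -0.085 and -0.22. Relative to each gene's mean the libraries overlapped over the leaf list. Over the root list they did not, at 0.19, 0.11 and 0.020 for Col-0 and -0.022, -0.17 and -0.045 for atrx-2. The root median under low light was 0.013. The part of tissue make-up in the gene results was not tested.

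**Figure D5:**
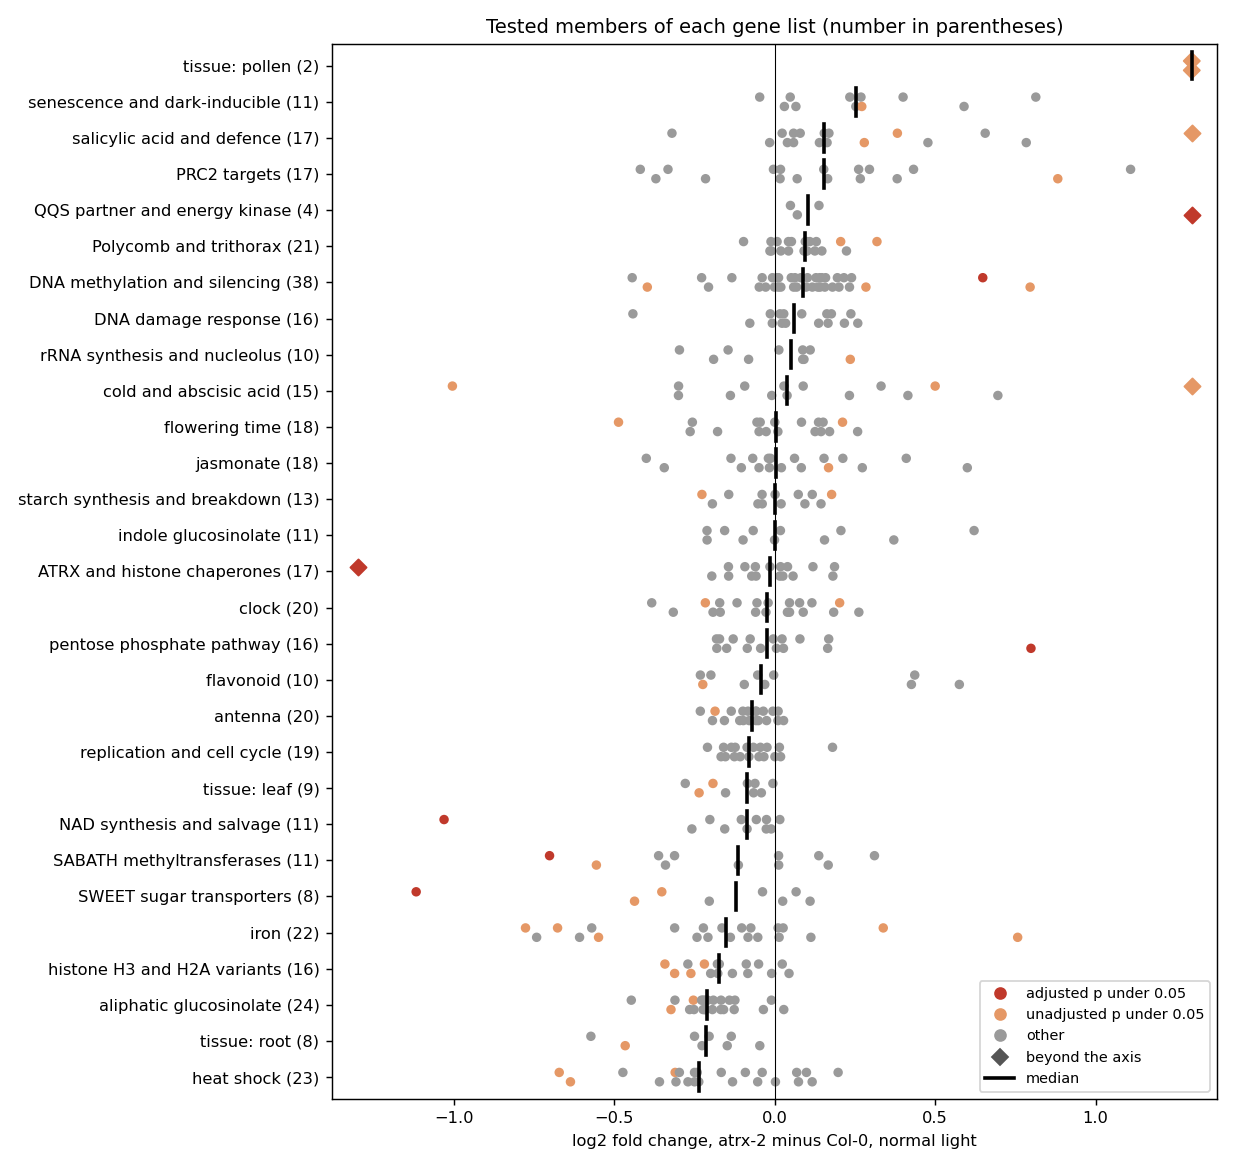
Log2 fold change (atrx-2 minus Col-0, normal light) of each tested member of the gene lists, 1 line a list with its number of tested members, coloured by adjusted and unadjusted p, with the median as a black bar. Diamonds at the edges stand for members beyond the axis; medians other than that of the pollen markers lie between -0.24 and 0.25.

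Annotated pseudogenes were described as a class. Of 4837 pseudogenes 286 passed the filter, and a pseudogene that passed only through high values in 1 group had to differ, so the sums over all of them are given. Over all 4837 the level was 1671, 2107 and 1932 CPM in wild type and 2252, 2369 and 2237 CPM in atrx-2, groups that did not overlap. The 4551 pseudogenes below the filter summed to 40.9, 46.2 and 50.1 CPM in wild type and 50.7, 56.8 and 52.7 CPM in atrx-2. Under low light the sums over all pseudogenes overlapped, at 2152, 2148 and 2545 CPM in wild type and 1847, 2359 and 2578 CPM in atrx-2.

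The called genes lay on all 5 nuclear chromosomes, 4 on chromosome 1, 1 on chromosome 2, 4 on chromosome 3, 1 on chromosome 4 and 4 on chromosome 5. Among 85 positioned loci with an unadjusted p under 0.001, 10 neighbouring pairs lay within 100000 bases of each other. How many such pairs a random spread would give was not tested. The pairs include AT3G28290 with AT3G28300, which are 1 measurement, and AT3G60930 with AT3G60950, which both hold repeated sequence. The closest pairs joined GRP19, GRP20 and AT5G07570 on chromosome 5. GRP19 and GRP20 encode glycine-rich oleosins of the pollen coat. GRP20 was at 1.02, 1.28 and 0.892 CPM in wild type and 2.84, 2.23 and 3.65 CPM in atrx-2 (log2 1.46 ± 0.26 SE, adjusted p = 0.0524 by edgeR), and GRP19 held 11 counts in wild type and 63 in the mutant, 35 of the latter in replicate 1. AT5G07570, 141 bases from GRP20, held 269 counts in wild type and 452 in the mutant (log2 0.85 ± 0.16 SE, adjusted p = 0.0611 by edgeR). AT5G07571, 4992 bases from GRP20, held 35 and 82 counts without overlap (adjusted p = 0.553 by edgeR). In the same cluster GRP17 held 1 count in wild type and 22 in the mutant, whereas GRP18 held 4 and 5. Of the 7 pollen markers 2 were tested, GRP19 and GRP20. The sum over all 7 was 1.09 to 1.73 CPM in wild type and 3.47 to 5.03 CPM in atrx-2. Most of it came from GRP19 and GRP20, with 11 and 66 of 82 wild-type counts and 63 and 172 of 265 mutant counts. The pollen tube genes VGD1 and PPME1 held 1 count and 0 counts over all 6 libraries.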

How the data were processed

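Total RNA of whole seedlings was sequenced with 50-base single reads, per the labels' protocols. Per the submitters' processing notes the authors used kallisto 0.42, TAIR10 and DESeq2; the notes list them without a role or an order. Each library's deposited table holds estimated counts per locus, which the authors left unnormalized, and TPM, which as deposited sum to 1e+06 per library and were used only to compare levels between genes. Between 12.9% and 13.9% of the normal-light estimated counts were not whole within 1e-06, and they were rounded before testing. Replicates of each group differed by more than sampling noise (chi-square per gene 6.04 to 29.4), so none was taken as a repeat deposit. Counting is limited by depth: intervals and floors cover counting error only.

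All 12 libraries, in 4 groups of genotype and light taken from the labels, entered one edgeR 4.0.16 quasi-likelihood fit in R 4.3.3 (filterByExpr, TMM, 8 residual degrees of freedom). The contrast was atrx-2 minus Col-0 under normal light, with Benjamini-Hochberg adjustment over 20783 genes and a threshold of 0.05. The fit was tested on simulated data. Alternatives used DESeq2 1.42.0, limma 3.58.1, other scalings and filters, the replicate number as a block, and the omission of each library. Coordinates, neighbours, repeated 50-base windows and promoters come from the RefSeq genome TAIR10.1; of 33602 loci, 32835 are in that annotation.

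The comparison and the gene lists were chosen with earlier results of these data known. Of 530 list entries 17 were dropped because the annotation gives their symbol to another locus. Genes named are those called, the next 10, the first 10 called by DESeq2 alone, 3 of each list by p, the loci beside called genes, and ATRX, LHP1, FLC, MAF4, FT and QQS. The following were named after their values were seen: AT1G08590, AT1G08592, AT3G30737, GDU6, AT3G60930, AT3G61030, AT5G07570, AT5G07571, GRP17, GRP18, VGD1, PPME1, BHLH39, FIT and PGL2.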

Additional observations from a re-analysis of the deposited data

Results flagged for a closer look

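BHLH38, a basic helix-loop-helix gene of the iron uptake response, was marked because its genotype effect differed between the light levels. Under normal light it read 8.0, 9.74 and 10.1 CPM in wild type and 5.28, 6.11 and 4.85 CPM in atrx-2 (log2 -0.78 ± 0.19 SE). Under low light it read 1.23, 0.461 and 1.53 CPM and 3.59, 3.85 and 3.13 CPM (log2 1.73 ± 0.27 SE, adjusted p = 0.0237 by edgeR). The groups did not overlap at either light level, and the mutant was the lower under normal light and the higher under low light. The difference of the log2 effects was -2.51 (adjusted p = 0.0461 by edgeR's quasi-likelihood test of the interaction), the only one of 20783 genes to pass. The cause was not tested.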

How the results depend on the processing

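Of 14 genes called, the number moved with the processing, and the cause was not tested. DESeq2 called 58, edgeR without the filter on low counts 41, with robust dispersion 34, with library totals in place of TMM 28 (the median log2 over all genes shifted to 0.037) and without organelle and ribosomal RNA loci 25. It called 8 from the 6 normal-light libraries alone (7 higher) and 5 among genes with a mean of at least 5 CPM, where fewer genes were tested. Leaving out 1 library at a time gave 5 to 17 genes. Without wild-type replicate 1 there were 5, without wild-type replicate 3 7 and without atrx-2 replicate 1 9; the share of higher genes, 71.4% over all libraries, was 55.6% without atrx-2 replicate 1, 94.1% without atrx-2 replicate 2 and 85.7% without wild-type replicate 3. ATRX stayed between -5.45 and -5.28 (log2) in these omissions. With the replicate number as a block 17 genes were called over 12 libraries, 8 of them shared with the 14, and 5 over the 6 normal-light libraries, 3 shared. Deviations of same-numbered libraries correlated at -0.129 to 0.174 and those of libraries with different numbers at -0.153 to 0.127. With 3 libraries a group these linked values cannot decide whether the numbers pair the samples. The differences of 11 uncalled genes turned sign in some omissions, over the log2 ranges FT (-0.62 to 0.37), CYP81F2 (-0.035 to 0.88), JAZ1 (-0.096 to 0.63), CBF2 (-1.21 to 2.87), CLE43 (-0.15 to 0.11), AT4G33100 (-0.054 to 0.075), AT3G13275 (-0.12 to 0.046), AT1G19110 (-0.079 to 0.036), AT5G37980 (-0.20 to 0.099), PBS1 (-0.030 to 0.12) and CYP78A5 (-0.24 to 0.43). With limma-voom FT was at -0.056 and CYP78A5 at -0.043, under the replicate block FT at -0.057 and -0.050 (12 and 6 libraries), and with library totals AT3G13275 at 0.0061, AT1G19110 at 0.0026 and AT5G37980 at 0.0081. Over named genes, list and class medians and the number of genes called, 2616 values under the alternatives stayed the same. For a gene this means the same direction and side of the threshold, and for a median a shift smaller than the spread within groups. Of the rest, 72 gene values lost the threshold, 83 gained it and 24 changed direction. Another 84 values, medians or numbers of genes called, moved. In simulated counts at this depth and size the test recovered 92% of 100 planted 2-fold and 60% of 100 planted 1.5-fold changes among 20637 genes, with 6 false calls. The changes were planted only in genes with a mean of at least 1 CPM. Otherwise all 12 libraries shared 1 mean per gene, without an effect of light, and the spread was the fit's own estimate. The percentages therefore do not hold for genes below 1 CPM or for other spreads. With the adjustment used, the p-value needed for a call also depends on how many genes change. Far more changes were planted than the 14 genes called here, so the percentages may overstate recovery in this comparison.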
